A study of Mus musculus with 9 samples.

Results

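Circular RNAs (circRNAs) whose level stood apart in livers that had been preconditioned before injury were described here. A circRNA is a closed loop that forms when the end of an exon is spliced back onto the start of an upstream exon. It has no free ends, so it withstands RNase R, which breaks down linear RNA, and many circRNAs are long-lived in cells. Some circRNAs hold binding sites for miRNAs and can keep them from their mRNA targets. Hepatic ischemia-reperfusion injury (IRI) is the damage that follows when blood flow to the liver is stopped and then restored, and ischemic preconditioning (IPC) is a short cycle of the same kind that is given first and makes the liver more tolerant.

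The members were circRNA probes whose 3 IPC arrays all lay above, or all lay below, the 6 sham and IRI arrays, with an IPC mean at least 0.585 on the log2 scale (1.5-fold) from the sham mean and from the IRI mean. They were chosen by the deposited log2 values, and sought among the 10536 of 14236 circRNA probes that the scanner software marked as well above background on 3 or more of the 9 arrays. Exactly 6 probes were raised in IPC alone, which is 0.0569% of those detected. No probe was lowered in IPC alone (0%). Since the rule reads the values of all 9 arrays, the differences of these 6 probes between groups are given as a description.

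The 9 arrays came from livers of male C57BL/6 mice that shared diet, fasting, anesthesia and laparotomy, with 3 mice in each group. In sham mice the vessels to the liver were exposed and not clamped. IRI mice had 1 h of partial hepatic ischemia and 6 h of reperfusion. IPC mice first had a cycle of 10 min ischemia and 10 min reperfusion, and then the same 1 h and 6 h. There was no group with preconditioning and no later injury, so preconditioning was seen only in livers that were also injured. Total RNA of whole liver tissue was treated with RNase R, labeled with Cy3 and hybridized to a single-color array, so more cells of a type and more RNA per cell cannot be told apart. The files used here list probes by the array maker's IDs alone, without a circRNA name, gene, position or probe sequence. The labeled tissue could therefore not be checked against marker genes, and each probe is counted as 1 circRNA. Only the first 2 probes, by the smaller of their differences from sham and IRI, are named by ID, and the others are called members 3 to 6 by their rank.

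The arrays were read in 2 scans. Scan 2 held sham replicate 1, IRI replicate 2 and IPC replicate 3, which had 77.3% to 80.6% of circRNA probes well above background. On the other 6 arrays, 2 of each group, this share was 46.8% to 63.3%. The number of arrays limits the precision, and no circRNA spot was saturated. After Benjamini-Hochberg adjustment in limma, 0 circRNAs passed 0.05 in IPC vs. IRI and in IPC vs. sham. The smallest adjusted P from limma was 0.211 and 0.975, and 361 and 254 circRNAs had an unadjusted P below 0.05. With the methods' t-test 0 and 1 circRNAs passed the adjustment, and that 1 was not a member. When 1 array was left out, limma gave 4 adjusted calls in IPC vs. IRI without IRI replicate 3 and 1 without sham replicate 2, none of them a member, and 5 in IRI vs. sham without IRI replicate 3, again none a member.

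ASCRP4010223 came first by the smaller of its differences. Its deposited log2 values were 7.42, 7.83 and 6.94 on the sham arrays and 7.59, 7.51 and 7.51 on the IRI arrays. On the IPC arrays they were 8.04, 8.31 and 8.92. The 3 IRI arrays lay close together inside the range of the sham arrays, and every IPC array was above both groups, with 0.21 between the lowest IPC array and the highest sham array. The means were 7.40 ± 0.44 (SD, n = 3) in sham, 7.54 ± 0.05 in IRI and 8.42 ± 0.45 in IPC. This made the IPC level 2.04-fold that of sham and 1.85-fold that of IRI, or 1.03 and 0.89 on the log2 scale with a standard error of 0.26. The value was highest on IPC replicate 3, the only IPC array of scan 2.

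On the deposited values, ASCRP4005781 had the largest difference between IPC and IRI of the 6 probes. It was also the one in which IRI and sham were farthest apart. Sham arrays had deposited log2 values of 10.72, 9.95 and 11.09, IRI arrays 8.85, 9.99 and 8.70, and IPC arrays 11.84, 11.11 and 11.18. IRI replicates 1 and 3 were far below every sham array, and IPC replicate 2 was almost level with the highest sham array, at a distance of 0.02. The group means were 10.58 ± 0.58 (SD, n = 3) in sham, 9.18 ± 0.71 in IRI and 11.38 ± 0.41 in IPC. IPC was 4.58-fold above IRI (2.20 on the log2 scale, standard error 0.38) and 1.73-fold above sham (0.79, standard error 0.38). For this probe the description as changed in preconditioned livers alone is incomplete, because its level in IRI was 2.65-fold below sham. It was no longer chosen once the scan means, or the means of the replicate numbers, were removed.

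Member 3 had nearly equal means in sham and IRI. Its deposited log2 values were 8.30, 8.76 and 8.09 in sham, 8.33, 8.25 and 8.54 in IRI, and 9.03, 9.36 and 8.88 in IPC. The sham and IRI arrays were intermixed, and the lowest IPC array was 0.12 above the highest of them. IPC was 1.64-fold above sham and 1.64-fold above IRI, at 0.71 and 0.72 on the log2 scale with a standard error of 0.20.

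Member 4 was the dim one. Deposited log2 values were 5.11, 5.06 and 4.85 in sham, 4.61, 4.90 and 4.59 in IRI, and 5.92, 5.61 and 5.40 in IPC. The lowest IPC array was 0.29 above the highest sham array. The scanner marked it as well above background on 1 sham, 1 IRI and 3 IPC arrays, so it passed the detection filter through the group in which it was high. The background-corrected signal, in scanner units, was 3.76 to 14.6 on the sham arrays, 2.81 to 8.33 on the IRI arrays and 20.8 to 48.5 on the IPC arrays. The local background around the same spots was 12 to 23, and the signal was below it on 5 of the 6 sham and IRI arrays and above it on all 3 IPC arrays. The deposited IPC mean was 0.64 above sham and 0.94 above IRI on the log2 scale, which is no measured size, because only 1 sham and 1 IRI array were well above background.

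Member 5 differed most from sham after ASCRP4010223. Its deposited log2 values were 6.26, 6.69 and 6.25 in sham, 6.90, 6.70 and 6.49 in IRI, and 7.23, 7.61 and 7.04 in IPC. Of its 3 IRI arrays, 2 were above every sham array, and the highest was 0.14 below the lowest IPC array. IPC was 1.86-fold above sham (0.89 on the log2 scale) and 1.51-fold above IRI (0.60), with a standard error of 0.19 for both.

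Member 6 had means nearest to the distance the rule asks for. It had deposited log2 values of 7.31, 7.79 and 7.68 in sham, 7.68, 7.41 and 7.72 in IRI, and 8.06, 8.71 and 7.82 in IPC. The IRI arrays lay within the range of the sham arrays, and IPC replicate 3 was only 0.02 above the highest of them. IPC was 1.52-fold above sham and 1.51-fold above IRI, at 0.60 and 0.59 on the log2 scale with a standard error of 0.23.

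**Figure D1:**
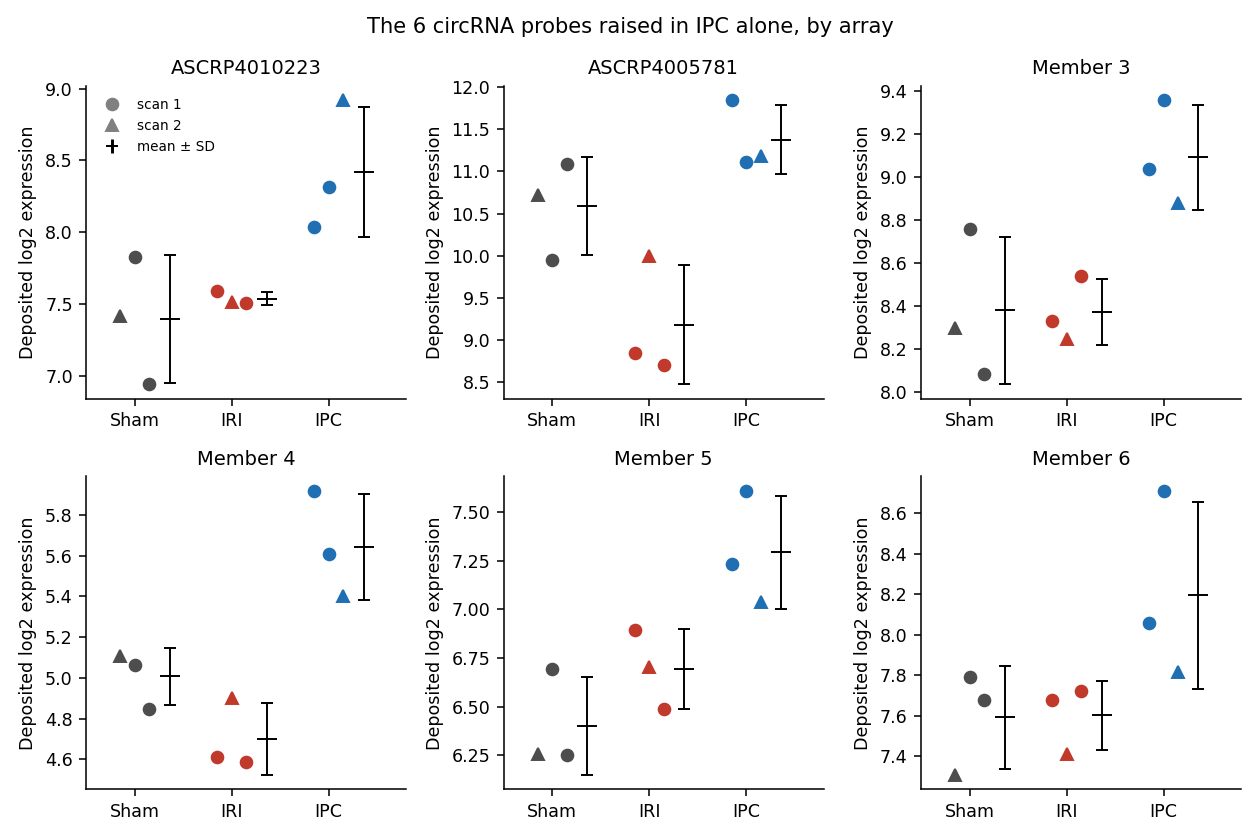
Deposited log2 expression of each of the 6 probes raised in IPC alone (y axis, separate range in each panel) on every sham, IRI and IPC array; circles are arrays of scan 1, triangles those of scan 2, and the bars beside them are the group mean ± SD (n = 3). All 3 IPC arrays lie above the other 6 in each panel, by 0.02 for ASCRP4005781 and member 6 and by 0.21 for ASCRP4010223.

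The spread within groups was of a similar order in all 6 probes apart from ASCRP4005781. The SD pooled over the 3 groups was 0.20 to 0.58 on the log2 scale, with a median of 0.29, beside a median of 0.22 over all detected probes. The array that set the upper limit of the other 6 was a sham array for 5 probes, and it was sham replicate 2 for 3 of them. IRI replicate 1 set it for member 5. Among the IPC arrays, replicate 2 was highest for 3 probes, replicate 1 for 2 and replicate 3 for 1. IPC replicate 3 was lowest for 4 probes. No probe had a spot marked as an outlier on any array.

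Every one of the 6 probes was higher in IPC within both scans, as the rule requires. In scan 1, with 2 arrays per group, IPC was above sham by 0.65 to 0.96 and above IRI by 0.63 to 2.70 on the log2 scale. In scan 2, with 1 array per group and thus no replicate, the differences were 0.29 to 1.502 from sham and 0.33 to 1.41 from IRI. ASCRP4010223 was the exception to a smaller difference in scan 2. It was 1.502 above sham and 1.41 above IRI there, against 0.79 and 0.63 in scan 1. The other 5 probes had smaller differences from both groups in scan 2. Among these, member 4 set the 0.29. Its differences in either scan are no measured sizes, because only 1 sham and 1 IRI array were well above background. The part of the scan in these sizes was not tested.

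The spots around the members were read as a description. The 15 to 20 detected circRNA probes within 2 rows and 2 columns of each member had a median difference, IPC minus the mean of the other 6 arrays, of -0.10 to 0.01 on the log2 scale. The largest single value among all these neighbors was 0.49. The members themselves were at 0.60 to 1.49 on the same measure, with ASCRP4005781 highest and member 6 lowest. They were chosen for a large difference and the neighbors were not, so a gap between them follows from the choice. Local effects on the array surface were not tested.

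The levels in injury without preconditioning were set against sham as a description, because the rule reads these arrays too. The IRI mean was below the sham mean for 3 of the 6 probes and above it for 3, and the median difference was 0.00 on the log2 scale, against -0.01 over all detected probes. Under the criteria of 1.5-fold and an unadjusted P below 0.05, 1 of the 6 was altered in limma, and it was lower, while 0 of the 6 were with the methods' t-test. Among all detected probes 0.797% were lower and 1.17% higher under these criteria in limma, and 0.361% and 0.37% with the methods' t-test. The altered probe was ASCRP4005781, at -1.40 (standard error 0.38, limma's adjusted P 1.00). Member 4, with only 1 sham and 1 IRI array well above background, had -0.31 with a standard error of 0.17, and the fifth had 0.29 with a standard error of 0.19. ASCRP4010223 was at 0.14 with a standard error of 0.26, and the third and sixth probes were at -0.01 and 0.01, with standard errors of 0.20 and 0.23.

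The 2 IPC contrasts share the IPC arrays and were both used by the rule, so the counts of altered members in them restate the choice. Read in that way, all 6 met the 1.5-fold and unadjusted P criteria of limma in IPC vs. IRI, where 0.902% of detected probes were higher and 0.484% lower. In IPC vs. sham 5 of the 6 met them, where 0.626% were higher and 0.199% lower. ASCRP4005781 was the one that was not. Its difference from sham was 0.79 with a standard error of 0.38.

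The choice of the 6 probes can be followed step by step. The order of the arrays alone put 73 probes with all IPC arrays above the other 6, or 0.693% of those detected, and 77 probes with all IPC arrays below, or 0.731%. Most of these differences were small. The median of the smaller difference was 0.25 on the log2 scale (1.19-fold) for the 73 and 0.23 (1.17-fold) for the 77. The means alone put 40 probes at least 0.585 above both groups and 1 probe at least 0.585 below both. Both conditions together left 6 and 0. Just outside the rule on the raised side was a probe whose arrays did not overlap and whose smaller difference was 0.584. The next had 0.55, against 0.59 and 0.60 for the 2 members with the smallest differences. Another raised probe had differences of 1.13 and 0.78 and was left out because its arrays overlapped by 0.08. On the lowered side the nearest probe had no overlap and was 0.71 below sham and 0.55 below IRI. The single probe far enough below both means, at -0.63 from sham and -1.86 from IRI, had arrays that overlapped by 0.10.

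**Figure D2:**
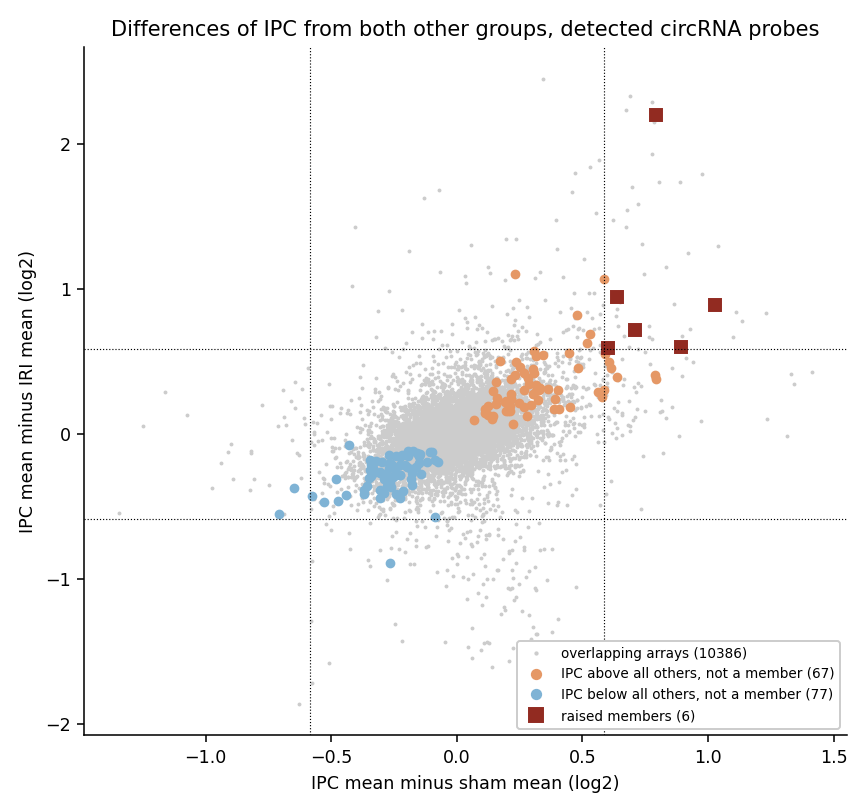
IPC mean minus sham mean (x axis) against IPC mean minus IRI mean (y axis), both in log2 units of the deposited values, for the 10536 detected circRNA probes; dotted lines are at a distance of 0.585 from 0 on either side. The 6 raised members (squares) lie in the upper right corner beyond both lines, and none of the 77 probes with IPC below all other arrays reaches the lower left corner.

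The same rule was applied with each of the other groups as the one that stands apart. IRI arrays were above both other groups for 7 probes (0.0664%) and below them for 23 (0.218%). Sham arrays were above for 9 (0.0854%) and below for 18 (0.171%). These counts use the same 9 arrays as the 6 and 0 of IPC, and the differences between them were not tested.

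The deposited values rank close to the uncorrected spot brightness, which includes the brightness of the array surface. A constant of this kind makes log2 differences of dim probes smaller. The members were therefore also read from the background-corrected scanner signal, as log2 values after quantile normalization. For 4 of the 6 probes, ASCRP4010223 and members 3, 4 and 5, the IPC arrays stayed above all others, as they did for 63 of 10466 probes (0.602%) on this signal. The scanner values come from the same arrays that chose the members, so nothing is read from this count. For ASCRP4005781 and member 6 they overlapped by 0.09 and 0.08. ASCRP4010223 was then 2.23-fold above sham and 1.96-fold above IRI. For member 4 the computed log2 differences were 1.84 from sham and 2.76 from IRI, but only 1 sham and 1 IRI array were well above background, so neither is a measured size. ASCRP4005781 stayed at 1.75-fold and 4.51-fold.

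**Figure D3:**
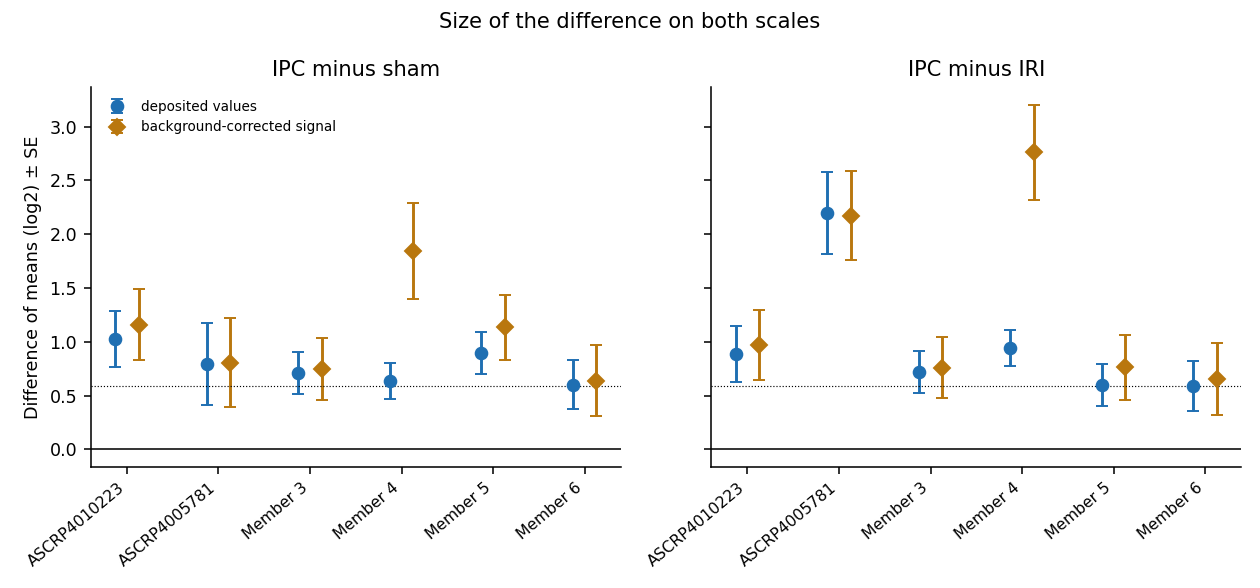
Difference of group means on the log2 scale with its standard error from limma (y axis) for the 6 probes (x axis), IPC minus sham on the left and IPC minus IRI on the right; circles are deposited values, diamonds the background-corrected signal, and the dotted line is at 0.585. For ASCRP4005781 the 2 scales are close (2.20 against 2.17 from IRI), and both symbols of member 4 rest on 1 sham and 1 IRI array well above background and show no measured size.

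On this background-corrected signal the rule chose more probes in both directions, 22 raised (0.21% of 10466 probes with a value on every array) and 16 lowered (0.153%). Of the 22 raised, 4 were among the 6 members and 9 were well above background on all 9 arrays. None of the 16 lowered probes was well above background on all 9 arrays. On the deposited values only 4 of these 16 had IPC arrays below all others, and their smaller difference was at most 0.46. With 75th percentile scaling of the same signal the rule kept only 2 of the 6 members, ASCRP4010223 and member 4, among 15 raised probes. There were 0 lowered probes on the deposited values of all 9 arrays, on the uncorrected spot median and on the spot median corrected with normexp. The scanner's processed signal gave 16 with quantile normalization and 9 with 75th percentile scaling. Of the 6 members, 5 were well above background on all 9 arrays, a state that 56.5% of the detected probes shared.

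The rule was also run on 4 other signals of the same arrays, the processed signal in both scalings and the spot median with and without normexp. ASCRP4010223 was chosen on all 4. Members 3 and 4 were chosen on 3 each, ASCRP4005781 on 2, member 5 on 1 and member 6 on 0. These signals share their arrays with the deposited values, so the counts are a description. At a distance of at least 1 (log2) of the IPC mean from both other means no probe remained. Leaving out an array cannot make the arrays of a member overlap and acts on it only through the means. When an array was left out, 3 to 6 of the 6 remained, with the fewest without IPC replicate 2. The number of probes chosen rose without most arrays. With fewer arrays the condition of no overlap is easier to meet, so other probes can enter. Without IPC replicate 3 it was 35 raised and 34 lowered, and 6 of the 6 members were among the 35. That array was the only IPC array of scan 2, so IPC then lay wholly in scan 1, and the part of the scan in this count was not tested. Raised probes numbered 10 without sham replicate 1, 17 without sham replicate 2, 13 without sham replicate 3, 16 without IRI replicate 3 and 17 without IPC replicate 1. There was 1 lowered probe without sham replicate 1, IRI replicate 2 or IRI replicate 3, and there were 2 without IPC replicate 1 and 3 without IPC replicate 2. With the scan means removed there were 9 raised, 5 of them members, and 0 lowered. With the means of the replicate numbers removed there were 12 raised, 5 of them members. ASCRP4005781 was the member lost in both.

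**Figure D4:**
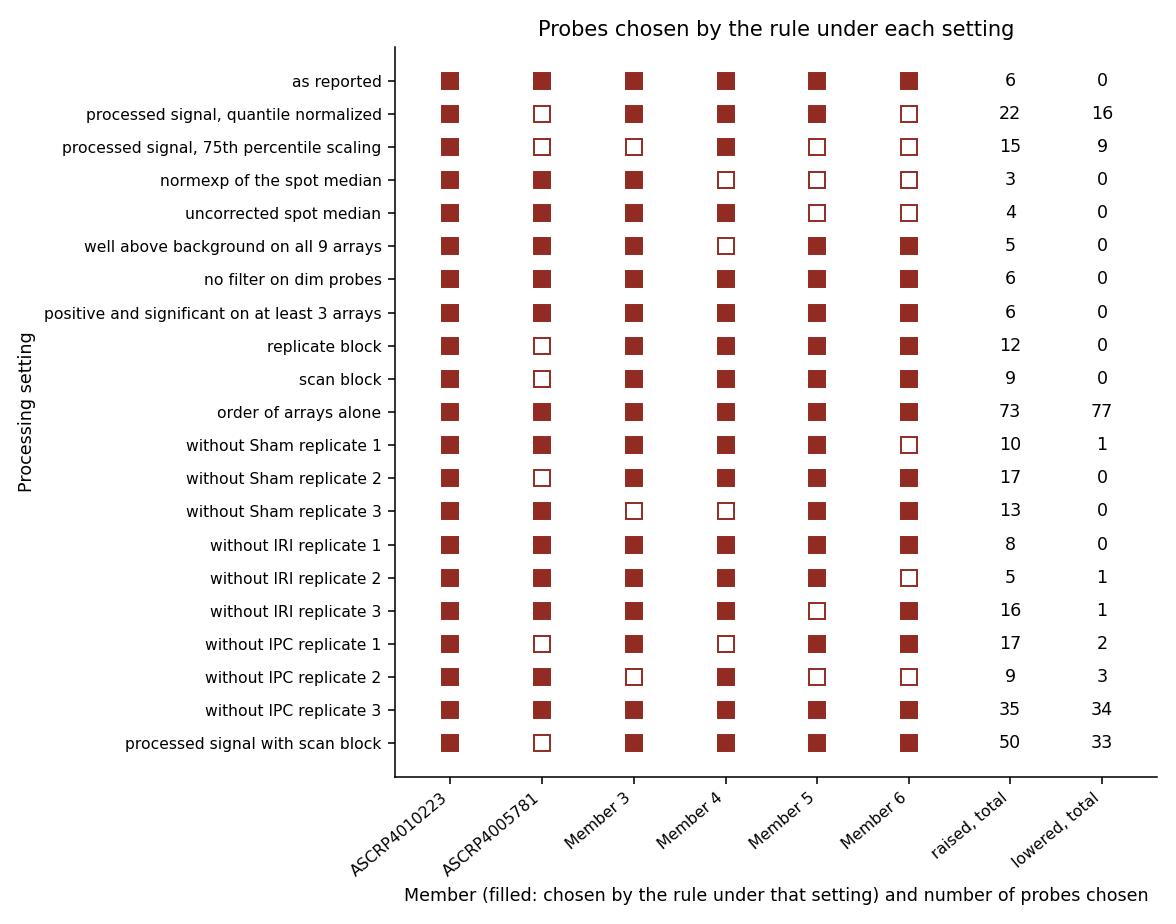
Filled squares mark which of the 6 members (x axis) the rule chose under each processing setting (y axis), and the 2 columns of figures at the right give the total number of probes raised and lowered in IPC alone. The lines for the order of arrays alone and for no filter on dim probes are filled by construction, and a distance of 1, at which no probe was chosen, is not drawn. On the 4 other signals ASCRP4010223 is filled on all and member 6 on 0, and lowered probes number 0 in the reported setting and 34 without IPC replicate 3.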

How the data were processed

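Scanner output of 9 arrays and 1 table of processed values were used. The authors deposited spot intensities from Agilent Feature Extraction 11.0.1.1 on a linear scale, with flags of 0 or 1 per spot. The deposited table holds log2 expression, quantile normalized by the authors. How background was corrected in it was not given in the sources used here. Per array its Spearman correlation across probes was 0.994 to 0.999 with the spot medians and 0.967 to 0.996 with the background-corrected signal.

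Members were chosen on the deposited log2 values, because the rule names them. Differences and standard errors came from limma 3.58.1 in R 4.3.3, fitted to the 10536 detected circRNA probes on all 9 arrays (6 residual and 3.78 prior degrees of freedom), with Benjamini-Hochberg adjustment over all of them. Members are ranked by the smaller absolute difference of the IPC mean from the sham and IRI means. Members, lists and rule were chosen with earlier results of these data known. Alternatives were the processed signal (quantile or 75th percentile scaling, outlier spots left out), normexp (offset 50) or no correction of the spot median, other filters, other distances, the scan or the replicate number as a block, other variance models, the methods' t-test and each array left out. The processed signal with the scan block was added after seeing the data. Scripts were tested on simulated data. The replicate numbers were not taken as pairs, since the labels name no pairs. The deviations of same-numbered arrays cannot settle it, because most of these arrays were read in different scans.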

Additional observations from a re-analysis of the deposited data

How the results depend on the processing

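The 6 raised and 0 lowered circRNAs moved by more than 1.5 times under these settings, and the cause was not tested unless stated. The processed signal gave 22 raised and 16 lowered with quantile normalization, 15 and 9 with 75th percentile scaling (2 of the 15 were members), and 50 and 33 with the scan block, a combination chosen after seeing the data. Normexp of the spot median gave 3 raised and 0 lowered. A distance of 1 (log2) left 0 raised, and the order of arrays alone gave 73 and 77. By construction a larger distance cannot add probes, and the order alone cannot remove any. Leaving out each array gave 5 to 35 raised and 0 to 34 lowered, with a condition of no overlap that fewer arrays meet more easily. With the replicate block the rule chose 12 raised, 5 of them members (ASCRP4005781 was lost), and 0 lowered. Whether the replicate numbers pair the arrays could not be told, because most same-numbered arrays were read in different scans. Of 9 pairs of same-numbered arrays, 3 had deviations from the group means that correlated above 0.1 across probes. The range was -0.65 to 0.63. For arrays of the same scan it was 13 of 15 pairs, and for arrays of different scans 0 of 12. The block left the numbers of altered members at 6 in IPC vs. IRI, 5 in IPC vs. sham and 1 in IRI vs. sham, where 0.845% and 0.55% of all probes were higher and 0.74% lower. Altered members numbered 3 in IPC vs. IRI and 3 in IPC vs. sham with normexp, where 0.55% and 0.228% of all probes were higher, and 3 to 6 in both without each array in turn (3 without IPC replicate 2, where 0.902% and 0.351% of all probes were higher). The methods' t-test altered 0 members in IRI vs. sham, where 0.361% of all probes were lower. For both named probes, the difference of IPC from the mean of the sham and IRI arrays kept its direction under each setting that gave it. This covers no other difference of these probes. Counts of altered lowered members could not be given, because there were none. Signal over background limits member 4 most.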
